A study of Mus musculus with 4 samples.

Results

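The mRNA levels of endothelial identity and angiogenic receptor genes were compared between cerebrums lacking Mfsd2a in endothelium and cerebrums of floxed control mice. The set was a list of 10 genes fixed by name, not by their values: Pecam1, Tek, Tie1, Kdr, Flt1, Vwf, Eng, Emcn, Erg and Ly6c1. A gene was read only from probe sets annotated with that symbol alone, and 9 of the 10 genes had at least 1 such probe set, 14 in all, of 18194 genes on the array. Ly6c1, a surface protein of capillary endothelium and some leukocytes in mice, had only a probe set that is also annotated to its paralog Ly6c2, so no value is given for it. Of the 9 genes measured, 6 had 1 probe set, while Flt1 had 4 and Eng and Erg had 2 each. Where a gene had several, the brightest over the 4 arrays stood for the gene.

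Cerebrum RNA was hybridized to Affymetrix mouse expression arrays as 4 pools of 5 to 6 cerebrums each, 1 array per pool. The 2aECKO pool came from postnatal day 9 Mfsd2a fl/fl mice carrying Tie2-cre, and its control, 2afl/fl, from day 9 Mfsd2a fl/fl mice. The 2aiECKO pool came from postnatal day 8 Mfsd2a fl/fl mice carrying the tamoxifen-inducible Cdh5ERT2-cre and given 4-OHT, the active tamoxifen metabolite, and its control, 2afl/fl 4-OHT, from day 8 Mfsd2a fl/fl mice given 4-OHT as well. All 4 groups were thus homozygous for the floxed allele, and the cre transgene set the knockout pools apart from their controls. Tie2 is the protein name of Tek, one of the genes described here, and Tie2-cre is also active in blood cell lineages. The Cdh5 promoter drives the inducible cre in endothelium. Title and genotype mark the inducible knockout as 2aiECKO and were followed, although its source name says 2aECKO. With 1 pooled array per group there was no replicate, so no difference here has a test, an error or a p-value.

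Endothelial cells line all blood vessels, and in brain they form the blood-brain barrier. Vessel growth is driven by vascular endothelial growth factor (VEGF), which signals through the receptor tyrosine kinase Kdr (VEGFR2) and is sequestered by Flt1 (VEGFR1), while angiopoietins signal through Tek, for which Tie1 is a co-receptor. Endothelial identity is held by ETS family transcription factors such as Erg and Fli1, which bind DNA at a GGAA core and act on many endothelial genes. Endothelial cells are a minority of the cells in cerebrum, so the arrays read their transcripts against a background of neuronal and glial RNA, and fewer endothelial cells and less RNA per endothelial cell cannot be told apart in such bulk samples.

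To show the promoter sequence that lies before genes of this set, the 250 bases upstream of the annotated start were taken from RefSeq (GRCm38.p6) for the 7 of the 9 measured genes with an entry. The windows were searched on both strands for GGAAG, an extended form of the ETS core, which reads CTTCC where it lies on the other strand. Of 32851 such windows of all genes, 64.1% held at least 1 match. The 3 windows printed are those of the matched genes with the largest absolute fold change in either model, a choice made after the values were seen, and capitals mark the matches. That of Emcn (chr3:137340828-137341077, plus strand) held 2 matches, that of Tie1 (chr4:118489850-118490099, minus strand) held 6, and that of Tek (chr4:94739039-94739288, plus strand) held none. Each is written in the direction of the gene, and a match describes the letters only.
Emcn upstream window: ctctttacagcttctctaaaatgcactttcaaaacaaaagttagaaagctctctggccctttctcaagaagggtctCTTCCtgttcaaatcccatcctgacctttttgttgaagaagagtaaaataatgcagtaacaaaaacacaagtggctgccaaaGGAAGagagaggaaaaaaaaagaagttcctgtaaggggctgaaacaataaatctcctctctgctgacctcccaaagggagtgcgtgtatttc
Tie1 upstream window: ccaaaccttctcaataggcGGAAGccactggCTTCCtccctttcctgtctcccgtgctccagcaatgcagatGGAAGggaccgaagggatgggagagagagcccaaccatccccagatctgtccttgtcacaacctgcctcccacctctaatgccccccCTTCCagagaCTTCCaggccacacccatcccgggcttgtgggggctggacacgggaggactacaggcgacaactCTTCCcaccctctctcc
Tek upstream window: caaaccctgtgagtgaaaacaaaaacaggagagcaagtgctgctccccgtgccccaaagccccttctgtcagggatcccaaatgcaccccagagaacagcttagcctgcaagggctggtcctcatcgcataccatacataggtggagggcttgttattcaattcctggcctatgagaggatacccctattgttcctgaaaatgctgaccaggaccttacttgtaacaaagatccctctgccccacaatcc

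The signals of the set lay well within the range of the arrays. They are RMA signals on a linear scale, and 8 of the 9 genes had a signal of at least 50, the lower limit used in the study's methods, in all 4 pools. The exception was Tie1, which had less than 50 in both pools given 4-OHT. Signals were read only within a knockout pool and its own control, because the 2 pairs were on different scales. Between sorted log2 values the largest gap was 0.07 for 2aECKO and 2afl/fl and 0.05 for 2aiECKO and 2afl/fl 4-OHT, but 0.79 for the 2 controls. The median signal of all probe sets was 75.5 in 2aECKO, 74.1 in 2afl/fl, 49.2 in 2aiECKO and 48.7 in 2afl/fl 4-OHT. All 13 neuronal markers listed for the check of the tissue had a signal of at least 50 in every pool. The single probe set of the deleted gene Mfsd2a had a signal of 410.2 in 2aECKO against 423 in 2afl/fl, and of 299 in 2aiECKO against 369 in 2afl/fl 4-OHT, log2 folds of -0.05 and -0.30. Whether this probe set reads the deleted exons was not settled, so it checks neither label.

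**Figure D1:**
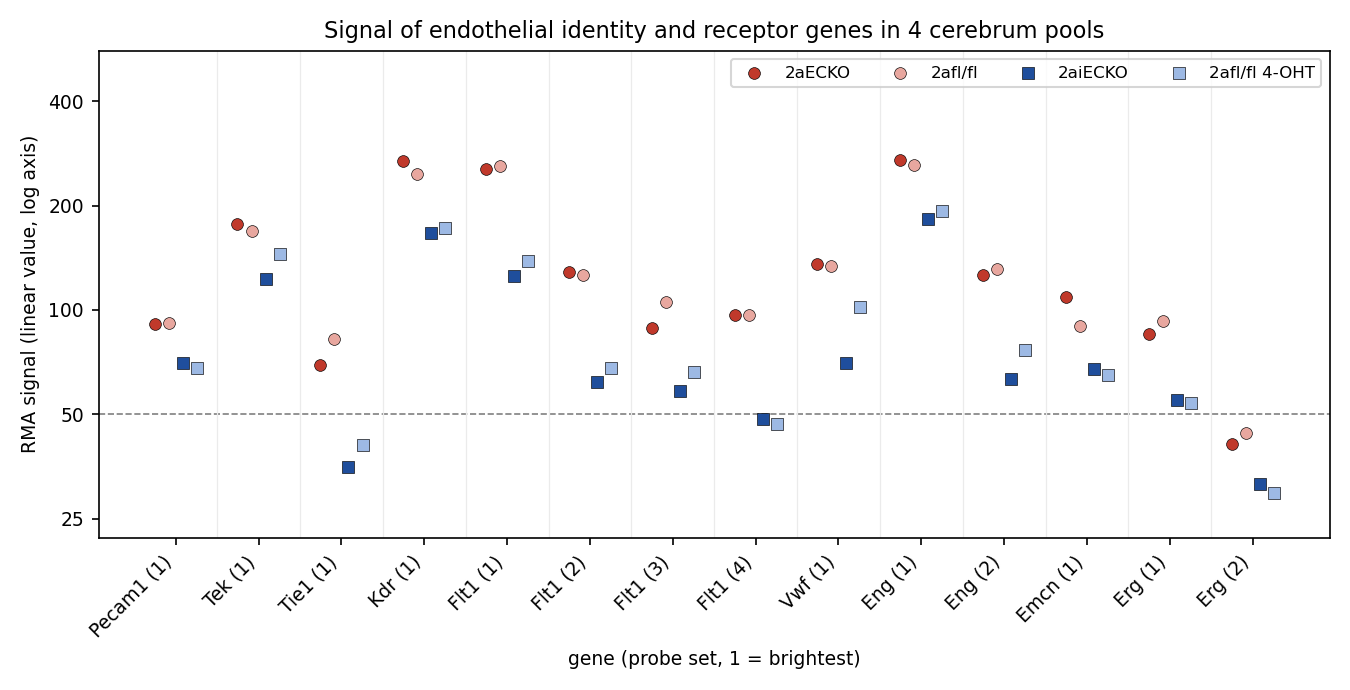
RMA signal (linear value on a log axis) of the 14 probe sets of the 9 measured genes in the 2aECKO (dark red circles), 2afl/fl (light red circles), 2aiECKO (dark blue squares) and 2afl/fl 4-OHT (light blue squares) pools, 1 array each, with the signal of 50 dashed. In the 2aECKO pair the symbols lie close together for most genes, while Vwf is separated in the 2aiECKO pair, at 70.4 in 2aiECKO and 102 in 2afl/fl 4-OHT.

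In 2aECKO cerebrum, none of the 9 genes passed the size rule in either direction. A gene was called higher when its knockout signal was at least 50 and its log2 fold at least 0.32, and called lower when its control signal was at least 50 and its log2 fold at most -0.32. By this rule 2.21% of 13186 genes with a signal of at least 50 in either pool were higher in 2aECKO and 1.74% were lower. The 9 log2 folds ran between -0.25 (Tie1) and 0.28 (Emcn), with 5 above 0 and 4 below. Their median was 0.02, beside -0.01 for all 13186 genes, of which 51.6% lay below 0. The robust SD of all log2 folds was 0.12, and 7 of the 9 genes had a fold smaller than this in size.

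In 2aiECKO cerebrum, Vwf was the 1 gene of the set called lower and no gene was called higher. Of 8 genes with a signal of at least 50 in either pool, 5 had log2 folds below 0. Over all 12050 such genes 0.598% were called lower and 1.88% higher, and 51.1% lay below 0. The log2 folds of the 8 genes ran between -0.53 (Vwf) and 0.06 (Emcn), with a median of -0.06 beside 0.00 for all genes. The robust SD of all log2 folds was 0.10, and 5 of the 9 measured genes had a fold smaller than this in size.

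**Figure D2:**
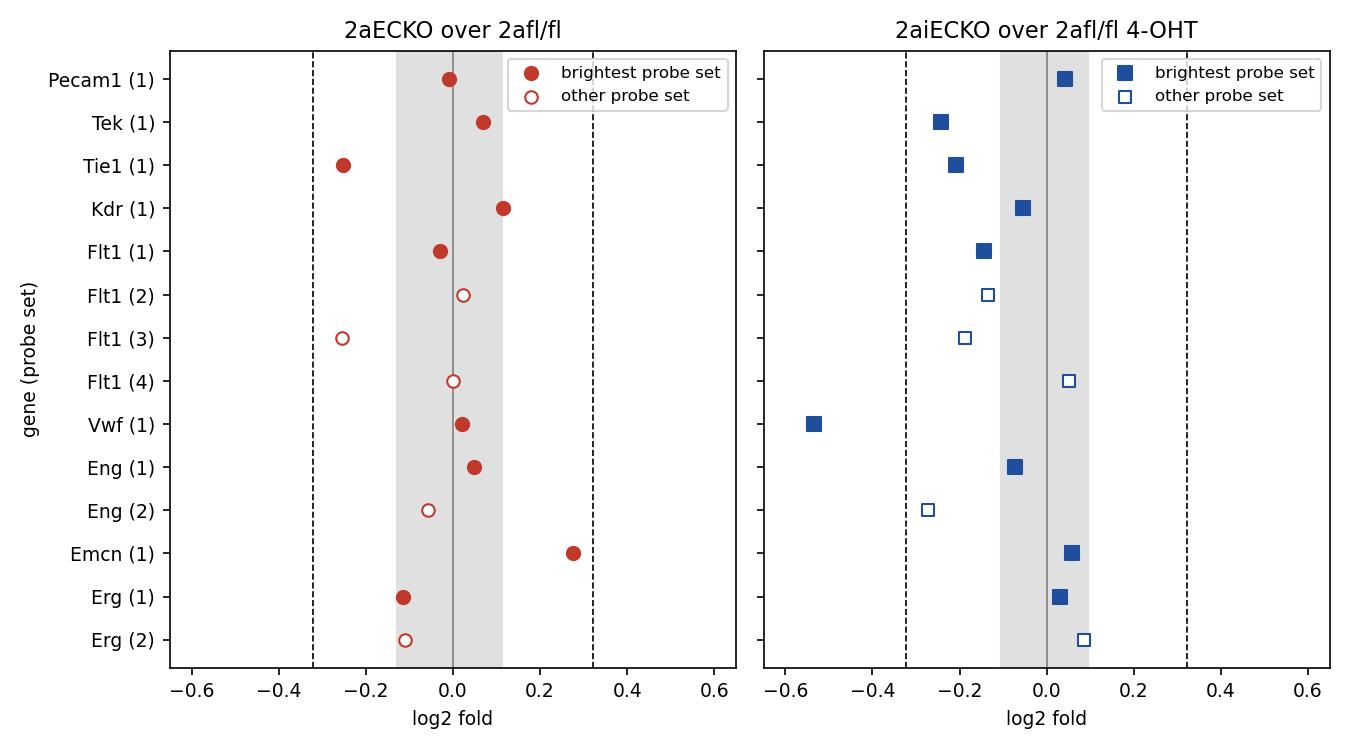
Log2 fold of each probe set of the 9 measured genes in 2aECKO over 2afl/fl (left) and 2aiECKO over 2afl/fl 4-OHT (right). Filled symbols are the brightest probe set of a gene and open symbols the others, the grey band is the median of all genes plus and minus their robust SD, and dashed lines mark log2 folds of 0.32 and -0.32. Vwf in 2aiECKO, at -0.53, is the only symbol outside the dashed lines.

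Among the VEGF receptors, Kdr, the main signalling receptor of endothelium, had a signal of 268 in 2aECKO against 248 in 2afl/fl, and of 166 in 2aiECKO against 173 in 2afl/fl 4-OHT. The log2 folds were 0.12 and -0.05, so that neither pool was set apart from its control by more than the robust SD of all genes. Flt1, which binds VEGF tightly and limits its action on Kdr, had a signal of 255 in 2aECKO against 260.1 in 2afl/fl and of 125 in 2aiECKO against 138 in 2afl/fl 4-OHT at its brightest probe set. These are log2 folds of -0.03 and -0.14. The other 3 probe sets of Flt1 gave 0.02, -0.26 and 0.00 in 2aECKO, and in 2aiECKO they gave -0.14, -0.19 and 0.05. The probe set with the lowest folds in both models had a signal of 88.4 in 2aECKO against 106 in 2afl/fl and of 58.3 in 2aiECKO against 66.4 in 2afl/fl 4-OHT. In 2aiECKO 3 of the 4 Flt1 probe sets were thus below 0 and none passed the size rule. Which part of the transcript each one reads was not known here. Flt1 is known to make a soluble form from a shorter transcript, and these values do not separate it from the membrane form.

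The spread between probe sets of 1 gene gives a scale for such differences. Over 5611 genes with at least 2 probe sets with a mean signal of 50 or more, the log2 folds of the brightest and the next differed by a median of 0.07 in either comparison, and the 90th percentile of the difference was 0.21 in both. At the brightest probe sets, the log2 folds larger in size than that percentile were those of Tie1 and Emcn in 2aECKO and of Vwf, Tek and Tie1 in 2aiECKO. Each of these genes had 1 probe set, so its own spread could not be read. Among the dimmer probe sets, 1 of Flt1 in 2aECKO (-0.26) and 1 of Eng in 2aiECKO (-0.27) also exceeded it. This spread lies between probe sets on the same arrays and says nothing of the spread between mice. Differences between transcript forms were not separated from it.

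For the angiopoietin receptors, Tek had a signal of 177 in 2aECKO against 169 in 2afl/fl, a log2 fold of 0.07. In the inducible model it had 123 in 2aiECKO against 145 in 2afl/fl 4-OHT, a log2 fold of -0.24 that did not reach the size rule but ranked 230 from the lowest of 12050 genes. Its co-receptor Tie1, an orphan receptor of the same family, had a signal of 69.4 in 2aECKO against 82.6 in 2afl/fl, a log2 fold of -0.25 that ranked 476 from the lowest of 13186 genes. In the inducible model Tie1 had 35.3 in 2aiECKO against 40.8 in 2afl/fl 4-OHT, a log2 fold of -0.21 at signals too low to be counted. Tek and Tie1 were thus on opposite sides of 0 in 2aECKO and on the same side in 2aiECKO.

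Vwf encodes von Willebrand factor, the large glycoprotein that endothelium stores and releases to hold platelets at sites of injury, and which megakaryocytes also make. It had a signal of 136 in 2aECKO against 134 in 2afl/fl, a log2 fold of 0.02. In the inducible model it had 70.4 in 2aiECKO against 102 in 2afl/fl 4-OHT, a fold of 0.691 and a log2 fold of -0.53. This ranked 10 from the lowest of 12050 genes, and it was read by 1 probe set only. Among platelet and megakaryocyte genes bright enough to be counted in the inducible model, none of 5 was called and their median log2 fold was 0.03. The only one below 0 was Gp1bb, a subunit of the platelet receptor for von Willebrand factor, at -0.28. Gp1bb was called lower in 2aECKO, at 439.5 in 2aECKO against 582 in 2afl/fl, a log2 fold of -0.40, though not by the mean of its probe sets, -0.24. Pf4, a platelet chemokine, had 160.3 in 2aiECKO against 133 in 2afl/fl 4-OHT, and another, Ppbp, had signals of at most 7.32 in all 4 pools. The summed signal of the 10 platelet genes on the array was 1066 in 2aECKO against 1165 in 2afl/fl, and 970.5 in 2aiECKO against 1040.1 in 2afl/fl 4-OHT. Gp1bb was the brightest of the 10 in every pool, and had 473 in 2aiECKO against 576 in 2afl/fl 4-OHT. Its own fall was larger than that of the sum in both pairs, so the sums do not describe the other genes of the list. Gp5 and Gp9, which also encode platelet glycoproteins, had signals of at most 64.7 in any pool. The paper states that mice were perfused with PBS before the cerebrums were taken. Whether the signals of Gp1bb and Pf4 came from platelets was not tested.

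Pecam1 and Eng, genes for a junction and a surface glycoprotein of endothelium, differed little at their brightest probe sets. Pecam1, the adhesion molecule CD31 of endothelial junctions, had a signal of 91.3 in 2aECKO against 91.9 in 2afl/fl and of 70.2 in 2aiECKO against 68.2 in 2afl/fl 4-OHT, log2 folds of -0.01 and 0.04. Eng, a co-receptor for ligands of the TGF-β family, had 271 in 2aECKO against 262 in 2afl/fl and 183 in 2aiECKO against 193 in 2afl/fl 4-OHT, log2 folds of 0.05 and -0.07. Its dimmer probe set gave -0.06 in 2aECKO and -0.27 in 2aiECKO, where it had 63.3 in 2aiECKO against 76.5 in 2afl/fl 4-OHT. The 2 Eng probe sets lay on opposite sides of 0 in 2aECKO and on the same side in 2aiECKO.

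Emcn, a sialomucin of capillary and venous endothelium, had the highest log2 fold of the set in 2aECKO. Its signal was 109 in 2aECKO against 89.8 in 2afl/fl, a fold of 1.21 that fell short of the size rule and ranked 447 from the highest of 13186 genes. In the inducible model it was 67.7 in 2aiECKO against 65.0 in 2afl/fl 4-OHT, a log2 fold of 0.06. Erg, the ETS transcription factor of the set, had 85.5 in 2aECKO against 92.6 in 2afl/fl and 55.0 in 2aiECKO against 53.9 in 2afl/fl 4-OHT, log2 folds of -0.12 and 0.03. A dimmer Erg probe set, below 50 in all 4 pools, gave -0.11 and 0.09.

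In 6 of the 9 genes the log2 fold had opposite signs in the 2 models, namely Pecam1, Tek, Kdr, Vwf, Eng and Erg. Tie1 and Flt1 lay below 0 in both models and Emcn above 0 in both. The share of all genes with opposite signs was not computed. Of all genes with enough signal, 51.6% lay below 0 in 2aECKO and 51.1% in 2aiECKO, so the count is not read as a trait of the set. No gene of the set was called in both models. The difference between the models could not be tested with 1 array per group, and several of these signs depended on the processing. With the mean of all probe sets Eng lay below 0 in both models, which left 5 of 9. With joint quantile normalization and the mean of both controls 4 of 9 had opposite signs, namely Pecam1, Kdr, Flt1 and Eng, while Tek, Vwf and Erg lay below 0 in both models.

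The control pools differed from each other by more than either knockout did from its control for 4 of the 9 genes, with all values on 1 scale. After quantile normalization over all 4 arrays, which puts them on 1 scale, Flt1 had joint signals of 223 in 2aECKO, 228 in 2afl/fl, 146 in 2aiECKO and 161 in 2afl/fl 4-OHT. The 2afl/fl 4-OHT pool was thus lower than 2afl/fl by 0.50 on the log2 scale at this probe set, and the other 3 Flt1 probe sets gave -0.37, -0.12 and -0.46. Tie1 gave -0.41, Erg -0.21 and Kdr -0.12, while Tek gave 0.22, Pecam1 0.13, Vwf 0.10 and Emcn 0.10. Eng gave -0.06 at its brightest probe set and -0.28 at the other. The 4 genes with a control difference larger in size than both knockout folds after the same normalization were Flt1, Tie1, Erg and Pecam1. By probe set this held for 8 of the 14. The share of all genes for which it held was not computed. Over all genes the robust SD was 0.25 for the control difference, against 0.12 and 0.10 for the folds as deposited in 2aECKO and 2aiECKO. The count is therefore not read as a trait of the set.

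The median control difference of the 9 genes was -0.06, beside 0.06 over 12790 genes, whose robust SD was 0.25. Age, 4-OHT and the pair of arrays all changed together between the controls and cannot be told apart. The pools of the 2 pairs also differed in sex-linked transcripts: the Y-linked gene Eif2s3y had joint signals of 88.9 in 2aECKO and 76.6 in 2afl/fl, against 256 in 2aiECKO and 277 in 2afl/fl 4-OHT, and Xist had 3986 and 3569.5 against 2292 and 1933. For Vwf the joint signals were 114 in both 2aECKO and 2afl/fl, and 84.8 in 2aiECKO against 121 in 2afl/fl 4-OHT, so that 2aiECKO was the lowest of the 4 pools and the other 3 lay close together.

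**Figure D3:**
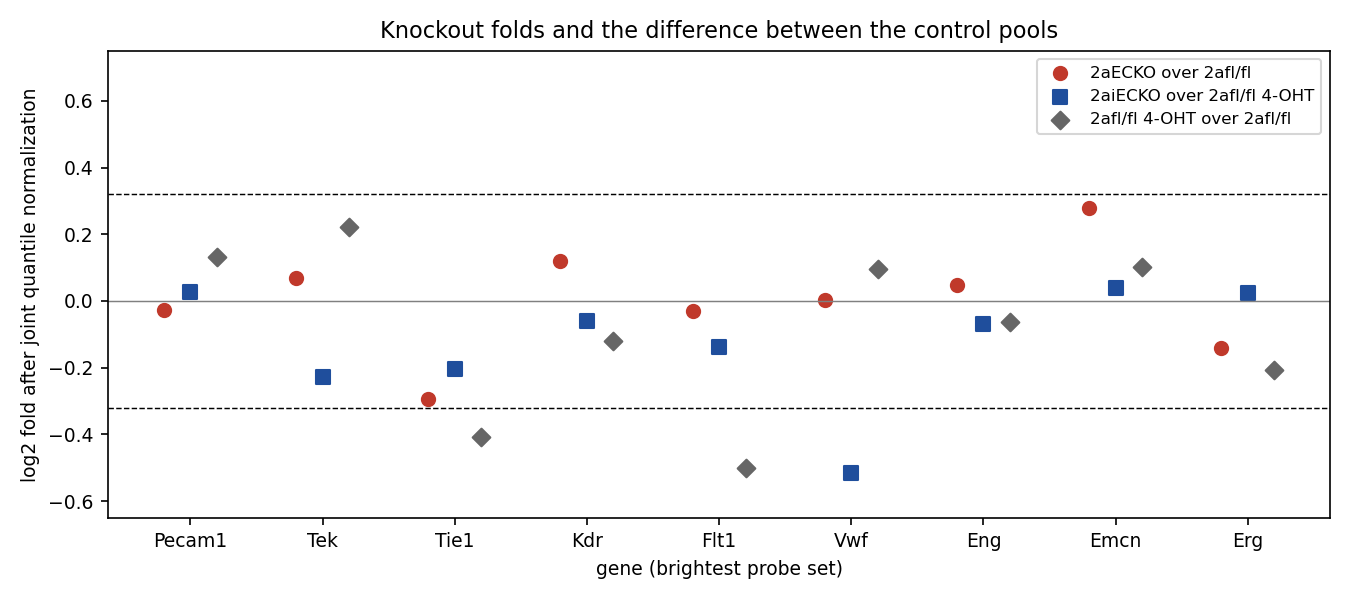
Log2 fold after joint quantile normalization at the brightest probe set of each gene in 2aECKO over 2afl/fl (red circles), in 2aiECKO over 2afl/fl 4-OHT (blue squares), and between the controls, 2afl/fl 4-OHT over 2afl/fl (grey diamonds). Dashed lines mark log2 folds of 0.32 and -0.32. For Flt1 (-0.50) and Tie1 (-0.41) the control difference lies beyond both knockout folds, and for Vwf the 2aiECKO fold of -0.52 on this scale is the one beyond the line.

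The ligands of these receptors stayed within the size rule in both models. Of 14 listed genes for VEGF, angiopoietin and related ligands, none of the 12 with enough signal was called in 2aECKO and none of the 8 with enough signal was called in 2aiECKO, with median log2 folds of 0.00 and -0.01. Vegfa, the main VEGF of brain, had 302 in 2aECKO against 282 in 2afl/fl and 216 in 2aiECKO against 212 in 2afl/fl 4-OHT. Pgf, a VEGF family ligand of Flt1, had log2 folds of 0.15 and 0.09. Angpt1, the activating ligand of Tek, had 259.6 in both 2aECKO and 2afl/fl, and 212 in 2aiECKO against 189 in 2afl/fl 4-OHT, a log2 fold of 0.17. Angpt2, a ligand of Tek that endothelium itself makes, had log2 folds of 0.19 and 0.15, with less than 50 in both pools of the inducible model.

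Other receptors and their partners on endothelium also centred near 0. In 2aECKO 1 of 24 was called higher and none lower, with a median log2 fold of 0.00, and in 2aiECKO none of 21 was called, with a median of 0.04. The gene called was Nrp2, a co-receptor for VEGF and semaphorins that neurons also express, at 599 in 2aECKO against 446 in 2afl/fl, a log2 fold of 0.43 at its brightest probe set and not called by the mean of its 4 probe sets, 0.317. Among 20 endothelial transcription factors none was called in 2aECKO, while in 2aiECKO 1 of 19 was called higher and 1 lower. Fli1, the ETS factor closest to Erg, had 148 in both 2aECKO and 2afl/fl, and 88.7 in 2aiECKO against 69.7 in 2afl/fl 4-OHT, a log2 fold of 0.35. The mean over the probe sets of Fli1 was 0.27, under the size rule, and microglia express this gene too. Sox7, a SoxF factor of endothelium, had 52.3 in 2aiECKO against 66.8 in 2afl/fl 4-OHT, a log2 fold of -0.35 and a mean over its probe sets of -0.18.

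Of 17 further genes of endothelial identity, none was called in either model. Their median log2 fold was -0.01 in 2aECKO, with 9 of 17 below 0, and -0.12 in 2aiECKO, with 14 of 17 below 0. The lowest in 2aiECKO was Icam2 at -0.26. Cdh5, the junction cadherin whose promoter drives the inducible cre, had 124 in 2aECKO against 121 in 2afl/fl and 82.8 in 2aiECKO against 90.8 in 2afl/fl 4-OHT, log2 folds of 0.04 and -0.13, and another probe set of Cdh5 gave 0.21 in 2aiECKO. Cldn5, the main claudin of the blood-brain barrier, had 1069 in 2aECKO against 1109.9 in 2afl/fl and 896 in 2aiECKO against 978 in 2afl/fl 4-OHT, log2 folds of -0.05 and -0.13. Among 15 junction and carrier genes of the barrier, Slc16a1, the monocarboxylate transporter MCT1, was the only one called, and it was lower in both models, with -0.68 in 2aECKO and -0.40 in 2aiECKO on the log2 scale at its brightest probe set. Its other probe set gave -0.14 in 2aECKO and 0.14 in 2aiECKO, so that by the mean of both, -0.41 and -0.13, the 2aiECKO call was lost. Of 7 venous and capillary genes, Car4, a carbonic anhydrase of capillary endothelium, was called lower in 2aiECKO, at 140.3 in 2aiECKO against 179 in 2afl/fl 4-OHT, a log2 fold of -0.35 whose call was lost by the mean of its probe sets, -0.30.

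**Figure D4:**
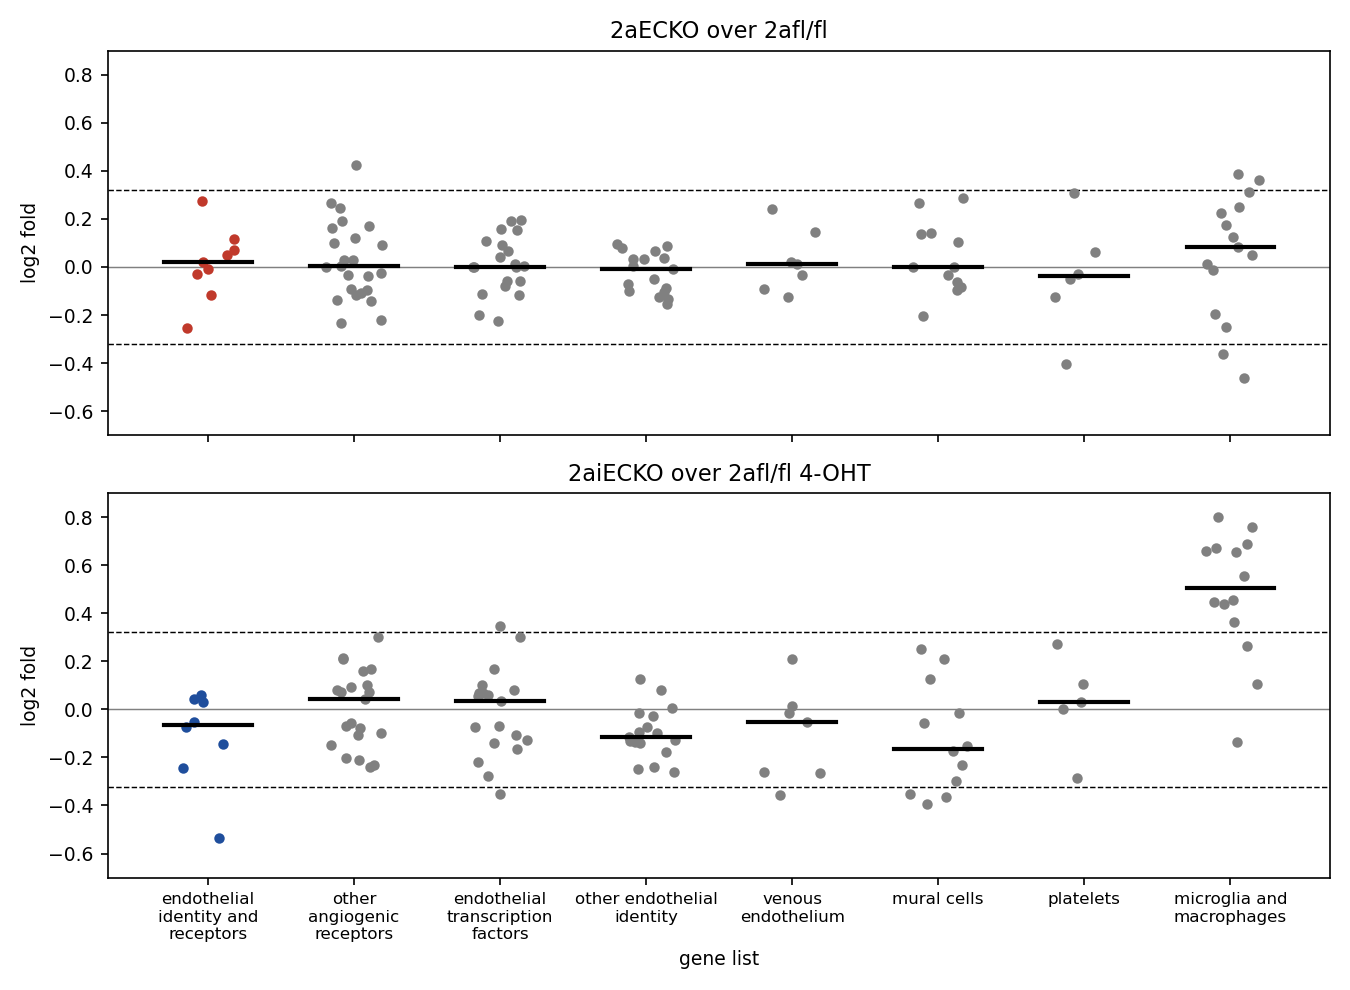
Log2 folds of single genes (points) and their median (black lines) in 8 gene lists for 2aECKO over 2afl/fl (top) and 2aiECKO over 2afl/fl 4-OHT (bottom), for genes with a signal of at least 50 in either pool, with log2 folds of 0.32 and -0.32 dashed. The 9 genes of the set centre on 0.02 in 2aECKO, the 8 with enough signal centre on -0.06 in 2aiECKO, and the microglia and macrophage list stands at 0.51 in 2aiECKO.

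Other cells of the vessel wall and of the cerebrum differed beside these genes in the inducible model. Of 12 mural cell genes, those of pericytes and smooth muscle, 3 were called lower in 2aiECKO, with a median log2 fold of -0.16, and none was called in 2aECKO, with a median of 0.00. The 3 were Abcc9 (-0.39), Higd1b (-0.36) and Kcnj8 (-0.35), genes of pericytes, and the call of Abcc9 was lost by the mean of its 3 probe sets, -0.10. Higd1b was read by 1 probe set, at 47.7 in 2aiECKO against 61.3 in 2afl/fl 4-OHT. Both signals lay under the alternative minimum of 100. In 2aiECKO 3 of the 12 lay above 0, namely Pdgfrb (0.25), the PDGF receptor of mural cells, Tagln (0.21), a gene of smooth muscle, and Vtn (0.13), a gene of pericytes. The summed signal of the 15 mural genes was 3804 in 2aiECKO against 4109 in 2afl/fl 4-OHT, and 5992 in 2aECKO against 5895 in 2afl/fl. Of 14 microglia and macrophage genes, 11 were called higher in 2aiECKO and none lower, with a median log2 fold of 0.51, the largest folds being those of Mpeg1 (0.80), Tyrobp (0.76), C1qa (0.69) and C1qb (0.67). In 2aECKO 2 of 15 were called higher and 2 lower, with a median of 0.08. The summed signal of the 17 microglia and macrophage genes was 6927 in 2aiECKO against 4767 in 2afl/fl 4-OHT, and 5743 in 2aECKO against 5373 in 2afl/fl. The part of these other cells in the folds of the endothelial genes was not tested.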

How the data were processed

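Total RNA of divided cerebrums was pooled by genotype and labelled with a 3' in vitro transcription kit, 1 array per pool. The deposited files hold intensity values, linear and not logged, which the authors made with RMA (background adjustment, quantile normalization and probe summary). The study's methods name the affy package, while the submitters' processing notes name Partek 6.6, and the values do not settle which was used.

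Log2 of the deposited intensity was taken, and folds were formed within each knockout pool and its own control. Of 45101 probe sets, 34958 carried 1 gene symbol in the platform annotation, 932 several and 9211 were unnamed here. Symbols were updated through RefSeq (GRCm38.p6, names and promoter windows only). The probe set with the highest mean log2 over the 4 arrays stood for a gene. The call for a higher gene (signal of at least 50, fold of at least 1.25) is the methods' own rule, and the call for a lower gene (fold of at most 0.8) is its mirror. The robust SD is the scaled median absolute deviation.

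The genes described and the 18 context lists (251 genes, 235 matched) were chosen with earlier results of these data known. Named from those lists were genes called in a comparison, at most the 4 of largest size per list, plus Mfsd2a, Cdh5, Cldn5, Vegfa, Pgf, Angpt1, Angpt2 and Fli1 whatever their values. Ly6c2 and Ly6a were to be named too, but had no probe set of their own. Icam2, Pf4, Ppbp, Pdgfrb, Tagln and Vtn were named after their values were seen, and Eif2s3y and Xist for the sex makeup of the pools. The number of arrays limits the precision, and no test or p-value was possible. The alternatives tried were a gene's mean over its probe sets, omission of the less specific probe set designs, removal of an intensity-dependent loess trend (fraction 0.3), centring of folds, joint quantile normalization, the mean of both controls, a minimum signal of 100 or none, and a fold of 1.5. The scripts were tested on simulated data. Python 3.11.15, numpy 2.4.6, pandas 2.3.3, scipy 1.17.1, statsmodels 0.14.6 and matplotlib 3.10.9 were used.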

Additional observations from a re-analysis of the deposited data

Results flagged for a closer look

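Of the 9 genes, 6 lay on opposite sides of 0 in the 2 models, and these differences were not tested, since each group was 1 array. The share of all genes with opposite signs was not computed, so the count is not read as a trait of the set. The log2 fold in 2aiECKO minus that in 2aECKO was -0.56 for Vwf, -0.31 for Tek, -0.17 for Kdr and -0.12 for Eng, and 0.15 for Erg and 0.0502 for Pecam1. The count was 5 of 9 with the mean of all probe sets and 4 of 9 with the mean of both controls, where Tek (-0.04) and Vwf (-0.04) lay below 0 in 2aECKO too. For Vwf the 2aiECKO fold was -0.53 and the 2aECKO fold 0.02, so nearly all of the difference came from the inducible model. For Tek the folds were -0.24 and 0.07. Those of Pecam1, 0.04 and -0.01, and of Eng, -0.07 and 0.05, were smaller than the robust SD of all genes in both models, 0.10 in 2aiECKO and 0.12 in 2aECKO.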

How the results depend on the processing

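No paired analysis was possible because each group was 1 array and the labels give no replicate numbers that groups share. The spread against which values with no test were judged was the robust SD of all log2 folds in a comparison. Vwf was called lower in 2aiECKO under each setting that kept the size rule, with log2 folds between -0.54 and -0.47, but at a fold of 1.5 the count of genes of the set called lower in 2aiECKO was 0. With joint quantile normalization and the mean of both controls that count was 3, since Tie1 (-0.41) and Flt1 (-0.39) joined Vwf, and this setting brings the difference between the controls into the fold by construction. The counts in 2aECKO stayed at 0 in both directions under each alternative run. The median log2 fold of the set ran between -0.04 and 0.06 in 2aECKO, so its sign depended on the setting, and between -0.14 and -0.06 in 2aiECKO. Of 102 single log2 folds of the genes under alternatives, 96 kept their call and moved by less than the robust SD, 4 moved by more, and the 2 just named became calls. Of 936 counts and medians of the context lists, 835 were labelled the same and 101 moved. A small change of a count could still be labelled the same. The count of astrocyte genes called higher in 2aECKO, for example, went from 2 to 3 without the less specific designs. By the mean of probe sets the 2aECKO calls of Nrp2, Tm4sf1, Gp1bb, Mobp and Hbb-b2 were lost. So were the 2aiECKO calls of Fli1, Sox7, Slc16a1, Car4, Abcc9 and Mbp. The 4 arrays, with no replicate, limit every value.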

Other observations

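Genes of vessel zones outside the set gave few calls. Of 11 arterial genes with enough signal in 2aECKO, Tm4sf1, a surface protein of endothelium, was called higher, at 315 in 2aECKO against 234 in 2afl/fl, a log2 fold of 0.43, but not by the mean of its 3 probe sets, 0.23. Cytl1, a secreted protein, was called lower, at 40.9 in 2aECKO against 54.9 in 2afl/fl, a call lost with joint quantile normalization and with a minimum signal of 100. None of 8 arterial genes was called in 2aiECKO at its brightest probe set, though Tm4sf1 was called higher there by the mean of its probe sets, 0.34. Genes of tip cells, the leading cells of a sprouting vessel, gave no call in either model. Their median log2 fold was 0.10 in 2aECKO, with 7 of 11 above 0, and -0.11 in 2aiECKO, with 7 of 8 below 0. Among 5 genes of the Ly6 family with enough signal, Lynx1, which binds nicotinic receptors of neurons, was called lower in 2aECKO, at 1151 in 2aECKO against 1653 in 2afl/fl, and Ly6g6e was called lower in 2aiECKO, at 47.7 in 2aiECKO against 59.8 in 2afl/fl 4-OHT. The Ly6g6e call was lost with joint quantile normalization and with a minimum signal of 100.

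Markers of other cells differed by list. Astrocyte genes had a median log2 fold of 0.25 in 2aECKO, with 2 of 13 called higher, and of 0.27 in 2aiECKO, with 5 of 13 called higher. Gfap was the highest of them in both models, at 0.89 and 0.90. Meningeal fibroblast genes had a median of 0.19 in 2aECKO, with 5 of 12 called higher and Col1a1 the highest at 0.74, and of 0.16 in 2aiECKO, with 1 of 12 called higher. Neuronal genes had a median of -0.11 in 2aECKO, with 1 of 13 called lower, and of -0.05 in 2aiECKO, with none called. Oligodendrocyte genes had medians of 0.00, with 1 of 9 called lower, and 0.07, with 1 of 9 called higher. These were Mobp in 2aECKO (-0.34) and Mbp in 2aiECKO (0.42), and both calls were lost by the mean of probe sets, -0.27 and 0.25. Choroid plexus genes had medians of 0.22 and 0.13, with Otx2 the 1 of 6 called higher in each. Of red cell genes, 2 of 3 were called higher in 2aECKO and none of 2 was called in 2aiECKO. The 2 were Alas2 (1.05) and Hbb-b2 (0.32), and the call of Hbb-b2 was lost by the mean of its probe sets, 0.306. The count in 2aECKO was also 1 without the less specific designs and with the loess trend removed.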
